A study of Homo sapiens with 18 samples.

Results

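The genes described here are 9 secreted growth factors of blood and lymphatic vessel growth: VEGFA, VEGFB, VEGFC and PGF of the VEGF family, the angiopoietin ANGPT1, the angiopoietin-like ANGPTL4, and HGF, FGF2 and FGF7. They were matched by gene symbol in a table of 57500 genes, all 9 were found, and all 9 were among the 16994 genes that passed the filter on low counts. The libraries were made from polyA RNA of IMR90, a line of human lung fibroblasts, in 6 groups of 3 libraries. Prol were proliferating cells, and Sen (IR) were cells made senescent by X-rays at 20 Gy. Sen (IR) + CCCP were irradiated cells given the uncoupler CCCP, which in cells that overexpress Parkin removes mitochondria by mitophagy (for 48 h from day 1, by the methods of the study), and are called depleted cells below. The remaining groups were such depleted cells given sodium acetate at 20 mM, transfected with mitochondrial DNA (mtDNA) on day 10, or given both. The methods of mitochondrial clearance start acetate on day 3, and those of the mtDNA transfection give no start day for it. By the methods of the study, X-ray senescent cells were collected from day 10 to day 12, and cells cleared of mitochondria on day 12. The methods of the mtDNA transfection give no collection day. IMR90 were kept at 3% oxygen. The sample labels name Parkin for no group; in its review correspondence the study marks senescent cells with and without CCCP, in a heat map of secretory genes that includes acetate, as Parkin-overexpressing, without saying which libraries it shows. Whether Prol carried Parkin, whether the groups without CCCP received solvent, and whether depleted cells without mtDNA received the transfection reagent is not given in the sources used here. All groups come from 1 cell line, and the study describes its replicates as independent experiments, which the sample labels do not state.

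VEGFA is the main ligand of the receptor KDR on endothelial cells and drives the sprouting of new vessels. VEGFB and PGF bind FLT1, and VEGFC is best known as the ligand of FLT4 in lymphatic vessels. ANGPT1 activates the endothelial receptor TEK and steadies vessels, and ANGPTL4 inhibits lipoprotein lipase. HGF acts through MET, FGF2 mainly through FGFR1, and FGF7 on epithelial cells through a splice form of FGFR2. Fibroblasts are a common source of HGF and FGF7, and senescent fibroblasts secrete several of these factors as part of the senescence-associated secretory phenotype (SASP).

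Libraries held between 24624886 and 46224280 counts on genes. All 8 fibroblast markers were tested and were abundant, with a summed level of 34896 to 38501 CPM (counts scaled to a common library size after TMM normalization) in Prol, 18624 to 23006 in Sen (IR) and 5079 to 6774 in the 4 CCCP groups. Of 6 endothelial markers 1 passed the filter, and their summed level was at most 1.27 CPM in any library. The summed epithelial markers reached at most 3.78 CPM and the leukocyte markers at most 1.18 CPM. In bulk RNA, fewer cells of a type and less RNA per cell cannot be told apart. Of the 5 senescence-state genes, CDKN1A rose and the other 4, LMNB1 and 3 proliferation genes, fell in Sen (IR). All 5 rose in depleted cells against Sen (IR). With acetate those 4 fell again and CDKN1A rose. Sen (IR) replicate 3 and replicate 2 of the cells given both stood apart from their replicates across all genes. Their chi-square per degree of freedom against their replicates was 22.1 to 28.2, and 2.77 to 7.69 for all other pairs. Without either of them no called value of the 9 genes lost its call or moved by more than 1.5 times, and the uncalled values that moved further are given with their comparison.

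By GENCODE v44 on GRCh38, all 9 are protein-coding genes. VEGFA spans chr6:43770184-43786487 on the plus strand, VEGFB chr11:64234584-64239264 on the plus strand, VEGFC chr4:176683538-176792922 on the minus strand and PGF chr14:74941834-74955626 on the minus strand. ANGPTL4 spans chr19:8363289-8374370 on the plus strand, HGF chr7:81699010-81770438 on the minus strand, FGF2 chr4:122826682-122898236 on the plus strand and FGF7 chr15:49423237-49488775 on the plus strand. The interval of ANGPT1 is not given here. Exons of NUDT6 on the opposite strand cover 804 bases, 11.8%, of the FGF2 exons, and the strand setting of the counting is not given in the sources used here. NUDT6 had 50 to 264 counts in a library, against 3727 to 33112 for FGF2.

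The promoters of VEGFC and FGF2, which rose with both acetate and mtDNA, are shown with those of HGF and FGF7, which fell with both. Each is a stretch upstream of a transcript start from the RefSeq promoter table (GRCh38.p14), written 5′ to 3′ on the gene's strand. It ends 0 bases before that start for VEGFC, 5 for FGF7, 89 for HGF and 149 for FGF2. By the GENCODE span above, the HGF stretch lies inside the gene. Capitals mark matches on either strand to a GC box (GGGCGG), to the core of the hypoxia response element as GCGTG, or to an NF-kB motif, here given by name.

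VEGFC, chr4:176792923-176793042, minus strand: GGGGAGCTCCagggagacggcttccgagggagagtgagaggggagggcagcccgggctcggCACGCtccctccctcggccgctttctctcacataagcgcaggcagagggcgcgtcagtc
FGF2, chr4:122826581-122826681, plus strand: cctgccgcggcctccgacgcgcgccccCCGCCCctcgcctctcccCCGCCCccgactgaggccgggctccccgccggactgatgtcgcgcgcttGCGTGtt
HGF, chr7:81770137-81770256, minus strand: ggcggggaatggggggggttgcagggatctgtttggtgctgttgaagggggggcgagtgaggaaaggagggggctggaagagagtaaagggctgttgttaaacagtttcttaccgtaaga
FGF7, chr15:49423117-49423236, plus strand: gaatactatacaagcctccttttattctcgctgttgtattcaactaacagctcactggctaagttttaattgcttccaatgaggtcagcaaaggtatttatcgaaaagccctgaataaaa

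In the whole 300-base windows (250 bases before the start and 50 after), VEGFC held 1 NF-kB match, 2 GC boxes and 1 hypoxia core of the kind marked above, and FGF2 held 3 GC boxes and 1 such core. HGF and FGF7 held 1 such core each, outside the stretch printed, and neither a GC box nor an NF-kB match. The variant of the hypoxia core written ACGTG was in none of the 4 windows. A TATA box, searched as TATAAA, an AP-1 motif, searched as TGACTCA, and the core of the interferon-stimulated response element (ISRE), given by name, were also in none of them. Of all 35116 promoters, 11.3% held an NF-kB match, 45.0% a GC box, 36.5% the hypoxia core marked above, 21.4% its variant, 11.5% a TATA box, 4.95% an AP-1 motif and 3.57% an ISRE core. No match to one of these motifs in the 4 windows overlapped a match to another. The 4 promoters were picked by the direction of change. VEGFA had no entry in the promoter table and was not searched. Of the others searched, VEGFB held 9 GC boxes, ANGPTL4 held 2, and PGF held 2 or 4 by transcript start. ANGPTL4 also held 1 TATA box and 1 hypoxia core written ACGTG. VEGFB and both PGF windows each held 1 core written GCGTG. ANGPTL4 and PGF rose with acetate and were not called with mtDNA, and VEGFB was called with neither. A match describes the letters and is not evidence that a factor binds.

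Per length, as TPM (the deposited transcript abundance, corrected for gene length), the order of the 9 genes changed between groups. HGF was highest in Prol at 383 ± 6.62 TPM (mean ± SD, n = 3, as below), ahead of VEGFC at 235 ± 8.09 and VEGFA at 186 ± 5.51. In Sen (IR), HGF at 486 ± 38.6 and VEGFC at 450 ± 30.7 overlapped, and VEGFA, at 71.7 ± 3.72, lay below FGF2, ANGPT1 and FGF7. In depleted cells HGF at 407 ± 26.5 was followed by FGF2 at 325 ± 14.8 and VEGFC at 185 ± 18.9, with no overlap. FGF2 headed the list in the other 3 groups, at 473 ± 26.0 with acetate, where it overlapped VEGFC at 469 ± 29.9, at 507 ± 15.4 with mtDNA and at 725 ± 85.9 with both. PGF was lowest in every group, between 0.380 and 1.81 TPM on average. The plot of TPM by group shows these crossings.

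**Figure D1:**
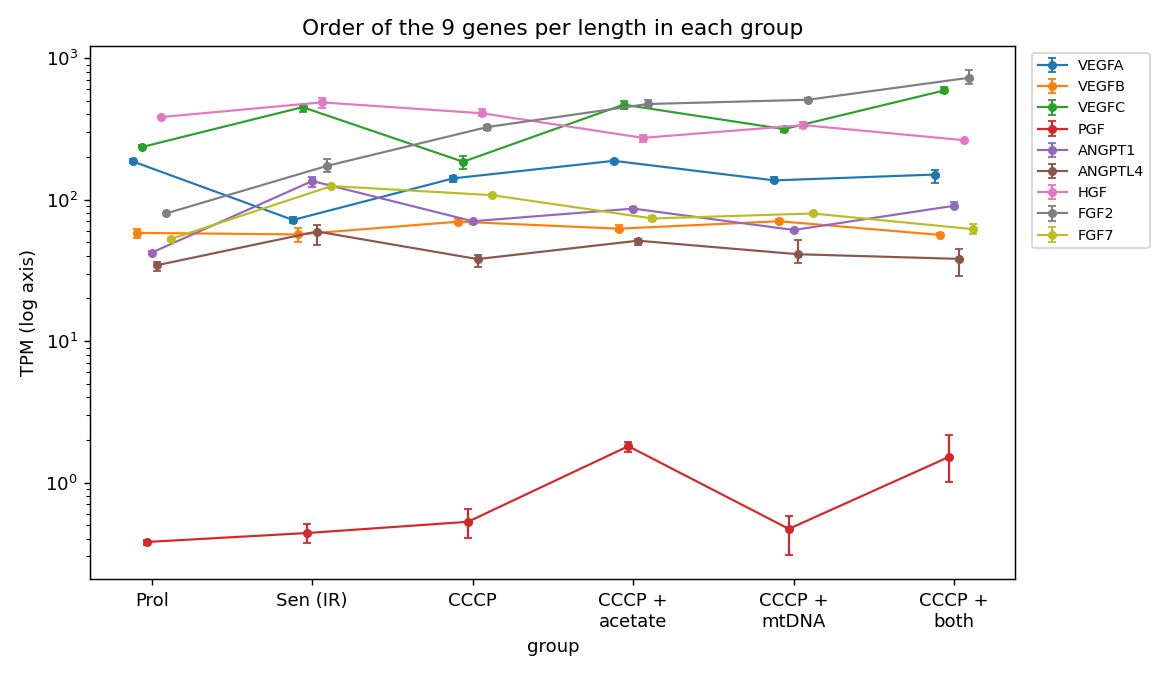
TPM of the 9 genes (log axis) in each group; points are means of 3 libraries, bars the range, and lines only join the means of one gene. FGF2 is at 79.8 TPM in Prol and at 725 TPM in depleted cells given both, where HGF is at 263 TPM against 383 in Prol. Levels compared between groups depend on the scale. In CPM, FGF2 is at 144 in Prol and 1007 with both, and HGF at 905 and 479.

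In Sen (IR) against Prol, which asks what changes with senescence, 6 of the 9 genes rose, VEGFA fell, and VEGFB and PGF did not pass the test. Across all 16994 tested genes, 26.7% were called higher and 29.9% lower (edgeR, adjusted p under 0.05). The median log2 fold change was 0.72 over the 9 genes and -0.01 over all genes tested. The 9 were chosen with earlier results of these data known, so here and below these medians only describe them. VEGFA was at 705, 722 and 713 CPM in Prol and at 274, 264 and 242 CPM in Sen (IR), a fall of 2.74-fold without overlap (log2 fold change -1.46 ± 0.06 SE, adjusted p = 2.23e-14). ANGPT1 was at 78.0, 80.0 and 81.4 CPM in Prol and at 260.5, 248 and 217 CPM in Sen (IR), 3.03-fold higher (1.60 ± 0.06, adjusted p = 2.37e-15). The ligand that starts sprouts and the one that steadies vessels moved in opposite directions, in all 3 libraries of each group.

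FGF7 was at 95.6, 88.5 and 95.3 CPM in Prol and at 207, 206 and 212 CPM in Sen (IR), a rise of 2.24-fold (log2 1.16 ± 0.05). FGF2 was at 146, 139.6 and 145 CPM in Prol and at 268, 288 and 325 CPM in Sen (IR), a rise of 2.04-fold (1.03 ± 0.08). VEGFC was at 149, 154 and 151 CPM in Prol and at 287, 285 and 248 CPM in Sen (IR), a rise of 1.81-fold (0.86 ± 0.07). None of these 3 overlapped between groups. The share of all genes without overlap is not given in any comparison, so a lack of overlap only describes the values. ANGPTL4 (0.72 ± 0.14, adjusted p = 0.000169) and HGF (0.26 ± 0.06, adjusted p = 0.00121) rose less. In Sen (IR) replicate 3, ANGPTL4 was at 29.3 CPM against 40.1 and 41.8 in the other replicates, and without it the log2 fold change was 0.86. VEGFB was at 23.9 ± 2.00 CPM in Prol and 22.0 ± 2.19 CPM in Sen (IR) (log2 -0.12, 95% interval -0.28 to 0.03, adjusted p = 0.168). It was called lower without Prol replicate 2 (adjusted p = 0.0440) or without Sen (IR) replicate 3 (-0.20, adjusted p = 0.0335). PGF had only 15 to 28 counts per library in these groups, and its log2 fold change was 0.12 (interval -0.56 to 0.80), or 0.22 without Sen (IR) replicate 3.

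**Figure D2:**
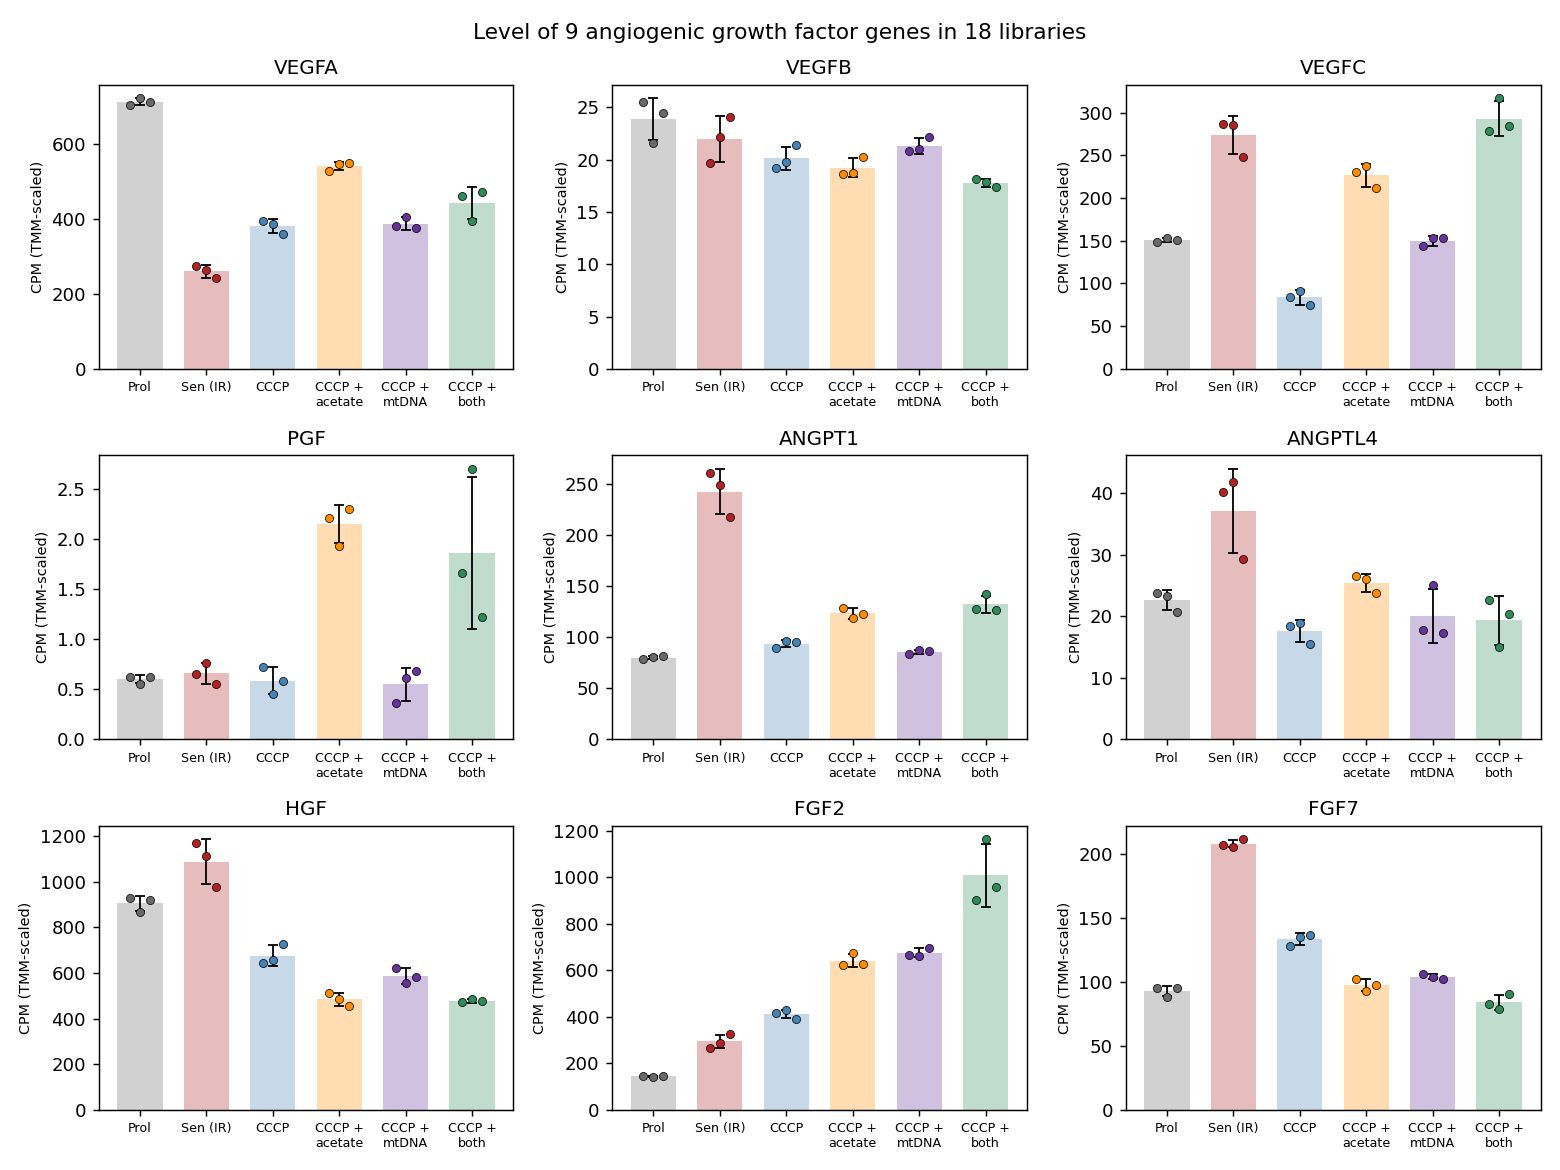
Level of each gene in CPM (TMM-scaled) in the 18 libraries; bars are means of 3 libraries, error bars the SD and points the libraries, with replicates 1 to 3 from left to right. VEGFC falls from 273 to 83.6 CPM with CCCP and stands at 293 CPM with acetate and mtDNA together, where FGF2 is at 1007 CPM, and PGF is above 1 CPM only in the 6 libraries given acetate.

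With loss of mitochondria, Sen (IR) + CCCP against Sen (IR), 5 of the 9 genes fell and 2 rose. Of all genes tested, 34.0% were called higher and 31.3% lower. The median log2 fold change of the 9 was -0.64, and 0.03 over all genes. VEGFC was at 84.6, 91.6 and 74.5 CPM in depleted cells, 3.27-fold below Sen (IR) (log2 -1.71 ± 0.07, adjusted p = 8.12e-15) and also below every Prol library. ANGPT1 fell 2.59-fold to 89.7, 96.0 and 94.8 CPM (-1.37 ± 0.06). ANGPTL4 fell 2.10-fold to 18.4, 18.9 and 15.5 CPM (-1.07 ± 0.14). HGF, at 644, 657 and 728 CPM, and FGF7, at 128, 136 and 137 CPM, fell by smaller amounts (-0.68 ± 0.06 and -0.64 ± 0.05). The 5 that fell had all risen in Sen (IR), a description only, since both comparisons use the Sen (IR) libraries.

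VEGFA and FGF2 rose in the depleted cells. VEGFA was at 395, 388 and 359 CPM, 1.46-fold above Sen (IR) (log2 0.55 ± 0.06, adjusted p = 6.01e-08) and still 1.87-fold below Prol. FGF2 was at 414, 429 and 392 CPM, 1.40-fold above Sen (IR) (0.49 ± 0.08, adjusted p = 6.38e-06) and 2.87-fold above Prol. FGF2 was thus called higher in both steps. The fibroblast markers fell in the same comparison, all 8 of 8, with COL1A1 at 6798 CPM in Sen (IR) and 877 CPM in depleted cells, and their part in these changes was not tested.

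The scale matters for the small changes after CCCP. With library totals in place of TMM, or on the deposited TPM, the median of all genes moved to 0.29 and 0.35 in this comparison, against 0.03 in the fit above. The 7 calls and their directions held on all 3 scales, but the sizes moved. On log2(TPM + 1), VEGFA stood at 0.97 and FGF2 at 0.91, and the falls shrank to -0.25 for HGF, -0.21 for FGF7, -0.62 for ANGPTL4, -0.93 for ANGPT1 and -1.28 for VEGFC. Library totals gave values in between, such as 0.81 for VEGFA, -0.42 for HGF and -0.38 for FGF7. VEGFB was not called here (log2 -0.12, adjusted p = 0.155) but stood at 0.30 on log2(TPM + 1) (limma, adjusted p = 0.000961), below that scale's median of all genes. It was called lower without Sen (IR) replicate 1 (adjusted p = 0.0310) and was at -0.05 without replicate 3. PGF was not called (-0.17, and -0.27 without Sen (IR) replicate 3).

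In depleted cells against Prol, 3 genes (FGF2, FGF7 and ANGPT1) were called higher and 5 lower (VEGFA, VEGFC, HGF, ANGPTL4 and VEGFB), with 35.1% of all genes higher and 34.1% lower. The log2 fold changes were 1.52 for FGF2, 0.52 for FGF7, 0.23 for ANGPT1, -0.91 for VEGFA, -0.85 for VEGFC, -0.42 for HGF, -0.35 for ANGPTL4 and -0.25 for VEGFB. HGF, ANGPTL4 and VEGFB changed sign on log2(TPM + 1), to 0.09, 0.14 and 0.26, with a median of all genes of 0.42 on that scale. There VEGFB was called higher (limma, adjusted p = 0.00266), and HGF and ANGPTL4 were not called (adjusted p = 0.199 and 0.444). With library totals none of the 3 was called (HGF -0.07, ANGPTL4 0.0033 and VEGFB 0.11, with adjusted p of 0.293, 0.985 and 0.241). The call of ANGPTL4 was lost when Prol replicate 1 (adjusted p = 0.0968) or 2 (0.0894) was left out, or replicate 1 (0.0503) or 3 (0.133) of the depleted cells.

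**Figure D3:**
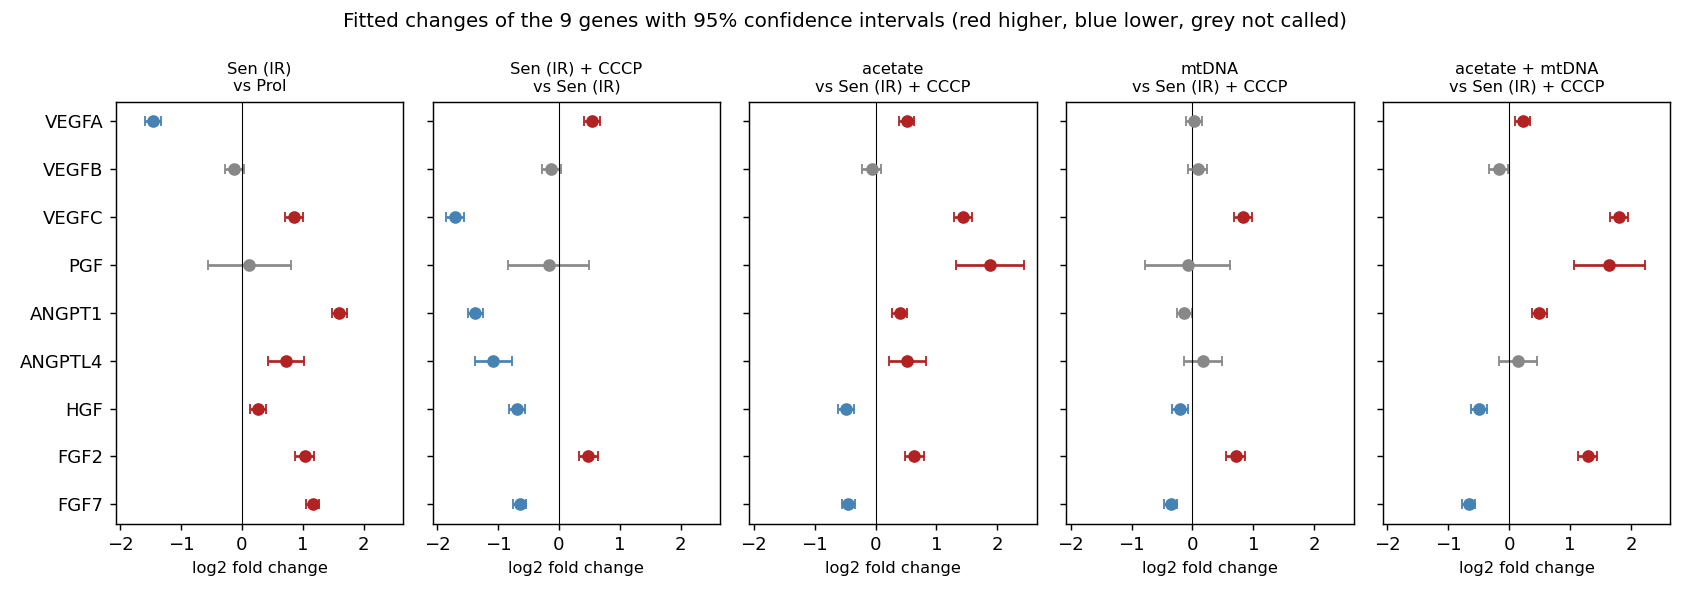
Log2 fold change of each gene in 5 comparisons with 95% confidence intervals from edgeR; red points were called higher, blue lower and grey not called at an adjusted p of 0.05. VEGFC turns from 0.86 with senescence to -1.71 with CCCP and is positive in the 3 comparisons of treated depleted cells, where FGF2 is also positive and FGF7 and HGF are negative.

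Acetate is a source of cytosolic acetyl-CoA, and this comparison asks what it changes in depleted cells. Here 6 of the 9 genes rose (VEGFA, VEGFC, PGF, ANGPT1, ANGPTL4 and FGF2) and 2 fell (HGF and FGF7), with 28.8% of all genes higher and 28.3% lower. The median log2 fold change of the 9 was 0.51, and 0.01 over all genes. VEGFC was at 230.3, 238 and 212 CPM with acetate, 2.71-fold above untreated depleted cells (log2 1.44 ± 0.07, adjusted p = 2.07e-13). PGF was at 2.21, 1.94 and 2.31 CPM, or 64, 88 and 110 counts, against 26, 18 and 16 counts in depleted cells, a rise of 3.67-fold (1.87 ± 0.27, adjusted p = 3.59e-06). It was the largest change of the 9 and stood on the lowest level.

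FGF2 rose 1.56-fold to 622, 674 and 626 CPM (0.64 ± 0.08), and VEGFA rose 1.42-fold to 529, 547 and 548 CPM (0.51 ± 0.06). ANGPTL4 rose to 26.5, 26.0 and 23.7 CPM (0.52 ± 0.14, adjusted p = 0.00367) and ANGPT1 to 128, 118 and 123 CPM (0.39 ± 0.06), and neither overlapped the depleted cells. HGF fell to 512, 488 and 456 CPM (-0.48 ± 0.06) and FGF7 to 102, 93.0 and 98.0 CPM (-0.45 ± 0.05). VEGFB was at 19.2 ± 0.924 CPM (log2 -0.06, interval -0.22 to 0.09). The 8 calls held when any 1 library was left out.

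Transfected mtDNA is a ligand of the cytosolic DNA sensor cGAS. With mtDNA, 2 of the 9 genes rose and 2 fell, with 10.7% of all genes higher and 7.40% lower. VEGFC was at 143, 153 and 153 CPM, 1.79-fold above depleted cells (log2 0.84 ± 0.07, adjusted p = 1.66e-08). FGF2 was at 667, 663 and 697 CPM, 1.64-fold above them (0.71 ± 0.08, adjusted p = 3.89e-07). These genes also rose with acetate. FGF7 fell to 106, 104 and 102 CPM (-0.36 ± 0.05, adjusted p = 2.89e-05). HGF fell to 622, 555 and 582 CPM (-0.20 ± 0.06, adjusted p = 0.0286), a call that no longer passed when replicate 3 of the depleted cells (adjusted p = 0.204) or mtDNA replicate 2 (0.150) or 3 (0.104) was left out.

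The remaining 5 genes did not pass the test with mtDNA. VEGFA was at 380.1, 407 and 375 CPM (log2 0.02, interval -0.10 to 0.15), and PGF had 10, 17 and 21 counts (interval -0.78 to 0.62). ANGPT1 was at 83.2, 86.8 and 85.8 CPM, below every depleted library without passing (log2 -0.13, adjusted p = 0.140). It was called lower with library totals (adjusted p = 0.00875), on log2(TPM + 1) (limma, adjusted p = 0.0118) and in the fit of these groups only (adjusted p = 0.0126). ANGPTL4 was at 25.0 CPM in replicate 2 and at 17.7 and 17.2 CPM in the others, and VEGFB was at 21.3 ± 0.734 CPM. Acetate and mtDNA share the depleted libraries as control, so their changes stand side by side and their likeness is no separate result.

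With both, 5 genes rose against depleted cells (VEGFA, VEGFC, PGF, ANGPT1 and FGF2) and HGF and FGF7 fell, with 30.3% of all genes higher and 31.4% lower. VEGFC was at 278, 317 and 284 CPM, 3.50-fold above depleted cells (log2 1.81 ± 0.07, adjusted p = 5.74e-15). FGF2 was at 902, 1162 and 957 CPM, 2.45-fold above them (1.29 ± 0.08), and at 1.19 without replicate 2 of the cells given both. FGF7, at 83.0, 78.8 and 90.3 CPM, was 1.59-fold lower (-0.67 ± 0.05). HGF was at 471, 488 and 478 CPM (-0.50 ± 0.06) and ANGPT1 at 127, 142 and 127 CPM (0.50 ± 0.06). PGF had 61, 66 and 35 counts (1.65 ± 0.28), and 1.33 without that replicate 2. VEGFA was at 462, 395 and 473 CPM, with its lowest library inside the range of the depleted cells, and its call (0.22 ± 0.06, adjusted p = 0.00358) was lost with library totals (log2 0.04) and on log2(TPM + 1) (0.08). ANGPTL4 was not called (0.14, adjusted p = 0.427), nor without that replicate 2 (0.30, adjusted p = 0.0655). VEGFB missed the threshold (-0.17, adjusted p = 0.0539) and was called lower with a replicate block (adjusted p = 0.0424), in the fit of these groups only (0.0487), with library totals (0.000835) and on log2(TPM + 1) (0.00110).

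When mtDNA was added to acetate, FGF2 rose (0.65 ± 0.07) and VEGFC rose (0.37 ± 0.07), while VEGFA fell (-0.29 ± 0.06) and FGF7 fell (-0.22 ± 0.05), with 6.57% of all genes called higher and 6.0% lower. Of the called genes 52.2% were higher, and 64.7% were with DESeq2 size factors. The FGF7 call was lost without acetate replicate 1 (adjusted p = 0.0510). ANGPTL4 was lower without passing (-0.38, adjusted p = 0.0881), and was called lower with no filter on low counts, with library totals and without replicate 1 of the cells given both (adjusted p = 0.0385), but stood at -0.23 (adjusted p = 0.318) without replicate 2 of them. Without that replicate 2 the uncalled PGF moved from -0.23 to -0.56, ANGPT1 from 0.10 to 0.05 and HGF from -0.02 to -0.03. When acetate was added to mtDNA, VEGFC rose (0.97 ± 0.07), as did PGF (1.72 ± 0.29), ANGPT1 (0.63 ± 0.06), FGF2 (0.58 ± 0.07) and VEGFA (0.20 ± 0.06), and HGF, FGF7 and VEGFB fell, with 27.4% of all genes higher and 29.9% lower. ANGPTL4 was not called (-0.04, and 0.12 without replicate 2 of the cells given both). VEGFA overlapped in that comparison, and its call was lost with library totals (0.09) and on log2(TPM + 1) (0.13).

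The interaction asks whether the log2 changes with acetate and mtDNA add up, as the mtDNA effect among acetate-treated cells less the mtDNA effect among those not given acetate. It was called for VEGFC alone of the 9 (log2 -0.47 ± 0.10, adjusted p = 0.0260), with 0.0765% of all genes called positive and 0.583% negative. VEGFC rose by 0.84 with mtDNA alone and by 0.37 where acetate was present. The value kept its sign in every alternative, between -0.55 and -0.40, but the call was lost on log2(TPM + 1) and without any 1 of 7 libraries. These were replicates 1 and 3 of untreated depleted cells, 1 and 2 of those given acetate, 3 of those given mtDNA, and 1 and 3 of those given both, with adjusted p from 0.0517 to 0.0792. For FGF2 the interaction was -0.06 (interval -0.28 to 0.16, adjusted p = 0.878), and -0.18 without replicate 2 of the cells given both. For PGF it was -0.15, and -0.48 without that library.

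Against Sen (IR), depleted cells given both were higher in VEGFA (0.77 ± 0.06), FGF2 (1.78 ± 0.08) and PGF (1.48 ± 0.28) and lower in FGF7, HGF, ANGPTL4, ANGPT1 and VEGFB (-1.31, -1.18, -0.93, -0.88 and -0.30), with 32.2% of all genes higher and 34.7% lower. VEGFC was the gene without a call (0.10, interval -0.04 to 0.24, adjusted p = 0.211, and 0.04 without Sen (IR) replicate 3), with 278 to 317 CPM in the cells given both and 248 to 287 CPM in Sen (IR). It was called higher with library totals (0.18) and on log2(TPM + 1) (0.39, where the median of all genes was 0.19). VEGFB fell from -0.30 to -0.01 on that scale and was not called there.

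Ratios within a library do not depend on how libraries are scaled. VEGFC over VEGFA, as TPM, was 1.26, 1.27 and 1.26 in Prol and 6.25, 6.44 and 6.12 in Sen (IR). It was 1.28, 1.41 and 1.24 in depleted cells. It was 2.60, 2.59 and 2.30 with acetate, 2.31 ± 0.106 with mtDNA, and 3.59, 4.78 and 3.58 with both. VEGFA made up 38.8 ± 0.359% of the TPM of the 4 VEGF family genes in Prol, 12.4 ± 0.232% in Sen (IR), 35.6 ± 0.977% in depleted cells and 18.8 ± 2.39% with both.

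FGF2 over FGF7 was 1.52 ± 0.0302 in Prol and 1.38 ± 0.119 in Sen (IR), which overlapped. It was 3.17, 3.11 and 2.81 in depleted cells, 6.46 ± 0.601 with acetate, 6.37 ± 0.291 with mtDNA, and 10.7, 14.5 and 10.4 with both. The groups with acetate and with mtDNA overlapped in this ratio and in that of VEGFC over VEGFA. The summed TPM of the 9 genes was 1064 to 1078 in Prol and 1895 to 2080 with both. Unlike the ratios, this sum depends on the scale, and cells given both were not tested against Prol. On log2(TPM + 1) the median of all genes was 0.42 for depleted cells against Prol. These ratios were chosen after the values were seen and carry no test.

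**Figure D4:**
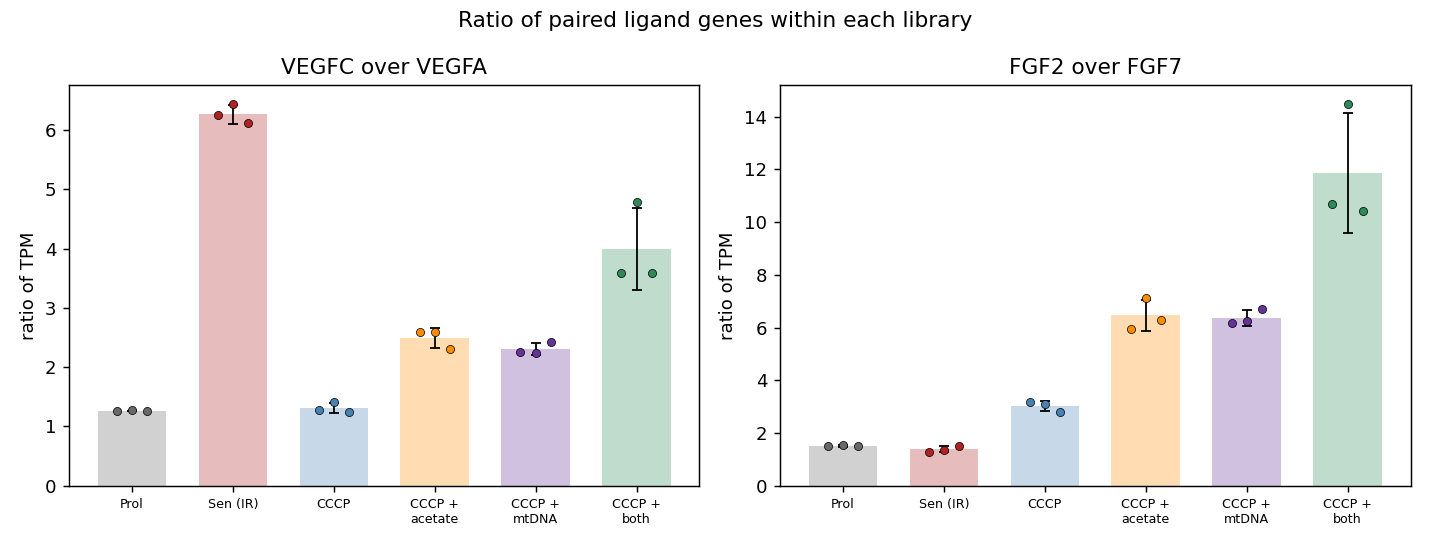
Ratio of TPM of VEGFC over VEGFA and of FGF2 over FGF7 in each of the 18 libraries; bars are means of 3 libraries, error bars the SD and points the libraries. VEGFC over VEGFA is 6.27 in Sen (IR) and 1.31 after CCCP, and FGF2 over FGF7 is 1.52 in Prol and 11.9 with acetate and mtDNA together.

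Counts of called genes in the gene lists below are to be read beside the shares of all genes given above for the same comparison. Of 12 receptor genes, 9 passed the filter, and FLT4, the VEGFC receptor, TIE1 and FGFR2 did not, with at most 10, 14 and 4 counts in a library. KDR was near the floor, from 0.0897 CPM in Prol to 1.74 CPM with mtDNA. Per length the most abundant was the ANGPT1 receptor TEK, at 243 TPM in Prol, then FGFR1 at 75.2 TPM, MET at 47.5 TPM, the co-receptors NRP1 at 47.3 and NRP2 at 29.2 TPM, and FLT1 at 19.7 TPM. FGFR4 and FGFR3 were at 2.33 and 0.576 TPM. In Sen (IR) against Prol 4 receptors rose and 4 fell, with MET (-0.75 ± 0.06), FLT1 (-0.32 ± 0.09) and FGFR3 (-0.76) among those that fell. KDR rose (2.22 ± 0.51) from 0.0897 CPM in Prol, with 7 to 21 counts in the Sen (IR) libraries. With CCCP 3 rose and 6 fell, and FLT1 went from 52.3 ± 4.31 to 21.5 ± 0.466 CPM (-1.28 ± 0.10).

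Acetate raised 3 receptors and lowered 4. NRP2, a co-receptor of VEGFC, rose (0.65 ± 0.05) and NRP1 fell (-0.57 ± 0.06). With mtDNA, NRP1 (0.48 ± 0.06) and NRP2 (0.16 ± 0.05) were the receptors called. With both 3 rose and 3 fell, and NRP2 (0.83 ± 0.05) and FLT1 (0.66 ± 0.10) rose while TEK fell (-0.43 ± 0.06) and FGFR3 fell (-1.23 ± 0.30). No receptor was called in the interaction.

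**Figure D5:**
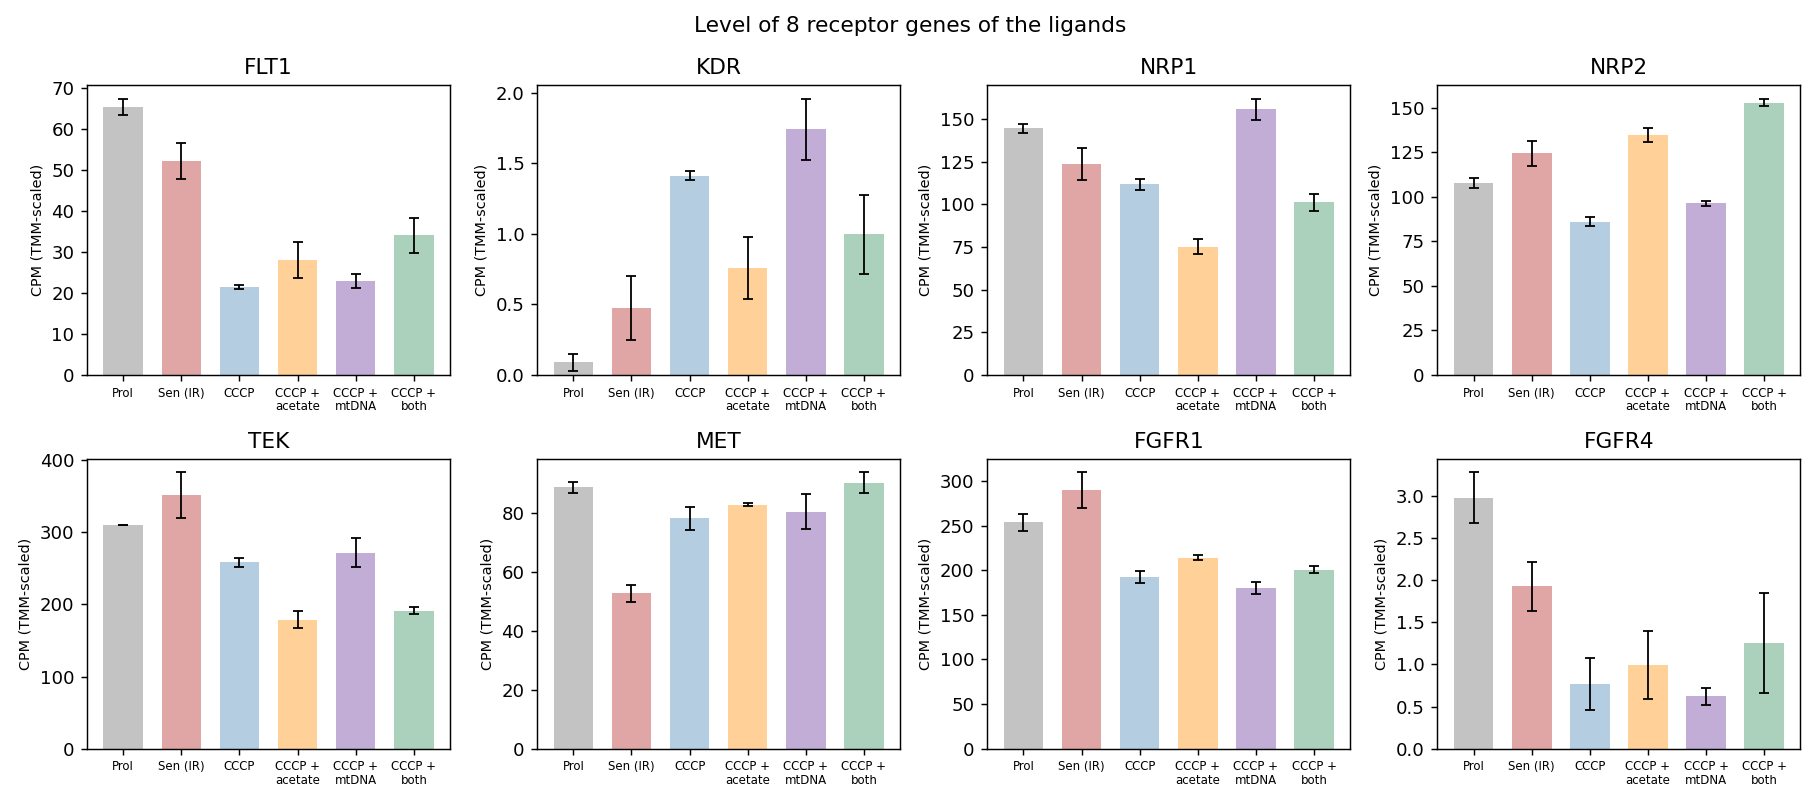
Level in CPM (TMM-scaled) of 8 receptor genes; bars are means of 3 libraries and error bars the SD, with a separate axis for each gene. FLT1 is at 65.4 CPM in Prol and 21.5 CPM after CCCP, NRP2 is highest with acetate and mtDNA at 153 CPM, and KDR stays below 2 CPM.

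Among 15 further ligands of the same families, 8 were tested. In Sen (IR), FGF1, a fibroblast growth factor that binds all FGF receptors, fell (-1.77 ± 0.14) and so did FGF5 (-0.81 ± 0.06), while ANGPTL2 (0.41 ± 0.08) and FGF18 (2.95 ± 0.74, near the floor) rose. With CCCP, FGF1, FGF9 and ANGPTL2 fell (-1.81, -1.56 and -1.02) and FGF5 rose (0.27). Acetate raised 2 of the 8 and lowered none, mtDNA raised 3 and lowered 1, and both raised 3.

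Of the 8 angiogenesis inhibitors, 1 rose and 5 fell in Sen (IR). The matrix protein THBS2 fell from 179 to 22.4 CPM (-3.00 ± 0.07), and the protease ADAMTS1 rose (1.14 ± 0.07). CCCP lowered 5, with THBS1 at -1.17 ± 0.08 and TIMP2, an inhibitor of metalloproteinases, at -0.83 ± 0.06, and 1 rose. Acetate raised 5 and lowered none, with THBS1 at 1.37 ± 0.08 and TIMP2 at 0.65 ± 0.06. With mtDNA 2 rose and 1 fell, and with both 6 rose and none fell.

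VEGFA and ANGPTL4 are known targets of the hypoxia-inducible factors (HIF), and the 16 other hypoxia genes moved both ways. In Sen (IR) 7 rose and 7 fell, with EPAS1, which encodes HIF-2α, at -0.84 ± 0.06 and the HIF hydroxylase EGLN3 at -1.63 ± 0.18. With CCCP 6 rose and 7 fell, with EPAS1 up (1.27 ± 0.06) and LOX and CA9 down (-1.36 ± 0.06 and -2.09 ± 0.28). Acetate raised 6 and lowered 5, mtDNA lowered 4 and raised none, and both together raised 4, HIF1A among them (0.74 ± 0.09), and lowered 8. EGLN3 fell in each of these 5 comparisons.

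ANGPTL4 is a target of the PPAR nuclear receptors, and 8 of 10 PPAR and lipid genes were tested. In Sen (IR) 5 rose and 3 fell, with the fatty acid transporter CD36 at 3.50 ± 0.27. With CCCP 3 rose and 3 fell, CD36 to -3.35 ± 0.26 and the lipid droplet protein PLIN2 to 0.75 ± 0.05. Acetate raised 7 of the 8, with PPARD at 0.72 ± 0.05, mtDNA raised 2 and lowered 1, and both raised 5. Of the 6 genes of HGF activation 4 were tested. The plasminogen activators PLAU and PLAT rose with acetate (1.66 ± 0.07 and 1.95 ± 0.09) and with both (1.83 ± 0.07 and 1.88 ± 0.09), comparisons in which HGF itself fell. PLAU also rose in Sen (IR) (0.93 ± 0.07) and with mtDNA (0.42 ± 0.07).

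Each gene's pattern over the 18 libraries was set against 10500 others with a mean of at least 5 CPM (10501 for PGF), as Pearson r of log2(CPM + 1). The libraries form 6 groups, so r mostly reflects 6 group means and is a description. VEGFC lay nearest to IL6 (0.96), a SASP cytokine, then NFKBIA (0.95), an inhibitor of NF-kB, and SCAMP1 (0.95). FGF2 lay nearest to LURAP1L, ERN1 and ZC3H12C (0.99, 0.99 and 0.98), and HGF to FAM198B, ARFGAP3 and GALNT2 (0.99, 0.98 and 0.98). ANGPT1 lay nearest to RAB6B, TGFBR2 and SARAF (0.99, 0.98 and 0.97), VEGFA to CARHSP1, RUNX1 and TEF (0.97, 0.96 and 0.96) and FGF7 to BLCAP, DKK2 and CYB5D2 (0.97, 0.97 and 0.96). PGF lay nearest to RHOB, FEZ1 and AC117402.1 (0.95, 0.94 and 0.94), and the lowest values were those of ANGPTL4 with TMEM179B, RNF103 and CCT8 (0.89, 0.88 and 0.88) and VEGFB with CYTOR, HSPB11 and MRPL33 (0.92, 0.89 and 0.88).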

How the data were processed

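RNA-seq libraries of 18 IMR90 samples were analysed, 3 in each of 6 groups set by the sample labels. The submitters' processing notes name Trimmomatic 0.36 (trimming), STAR 2.5.2b (alignment), GRCh38 (the build) and featureCounts from Subread 1.5.2 (read counting per gene). The authors deposited raw counts, and their strandedness is not given in the sources used here. The deposited TPM of the same genes correct the counts for gene length and depth. A single quasi-likelihood model of 6 group means was fitted to the counts (edgeR 4.0.16, R 4.3.3) without a replicate block, with TMM normalization and filterByExpr, giving 10 contrasts over 16994 genes with Benjamini-Hochberg adjustment at 0.05 and 95% confidence intervals. The common biological coefficient of variation was 0.0644. Depth was 24624886 to 46224280 counts per library, and intervals cover the spread between libraries. No library pair of a group agreed within sampling noise, so each counted once. Of the columns, 0 lacked a sample, and 485 genes had no symbol.

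The 9 genes and the context lists were chosen with earlier results of these data known. The 9 genes are named in every comparison. From each list the genes named are up to 4 with the largest called change in a comparison, and the receptors by level; for each member the 3 nearest genes by Pearson r are named. Alternatives were DESeq2 1.42.0 (size factors, Wald test), other filters (none, or a mean of 10 counts per library), only the groups compared, a replicate block, leaving out each library and, chosen after seeing the data, library totals and limma 3.58.1 on log2(TPM + 1). The scripts were tested on simulated data.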

Additional observations from a re-analysis of the deposited data

Results flagged for a closer look

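The interaction of acetate and mtDNA differed from 0 for VEGFC by its own test in edgeR (log2 -0.47, adjusted p = 0.0260). On the log2 scale, the change with mtDNA was smaller where acetate was present. In mean CPM, VEGFC went from 83.6 to 150 with mtDNA alone, and from 227 to 293 where acetate was present. The call was lost in 8 of 20 alternatives. In the groups of 3 used here no library was tested as an outlier.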

How the results depend on the processing

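Of the 90 values (9 genes in 10 comparisons), 61 kept their direction and their side of the threshold in all alternatives, as did 53 of the 62 called ones, and 16 changed sign in at least 1. The number of the 9 genes called stayed within 1.5 times the count reported, except in 2 comparisons. For depleted cells against Prol it was 8, and 5 with library totals. For the interaction it was 1, 0 on log2(TPM + 1) and 3 with no filter (VEGFC, VEGFA and ANGPTL4), and 0 to 1 when 1 library was left out. With the replicate block the counts of called genes were unchanged but for the cells given both against depleted cells, 8 in place of 7 (VEGFB), and the interaction kept 1. Deviations of same-numbered libraries of different groups correlated at -0.34 to 0.27 (median 0.04), above 0.1 in 9 of 45 pairs. Those of other-numbered libraries correlated at -0.29 to 0.34 (median -0.0073), above 0.1 in 11 of 90 pairs. With 3 libraries per group, these values do not settle whether the replicate numbers pair the libraries.

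Signs turned as follows, and the cause was not tested. With library totals, ANGPTL4 was -0.036 for both against depleted cells and 0.0033 for depleted cells against Prol, PGF 0.31 for depleted cells against Prol and 0.094 against Sen (IR), VEGFA -0.044 for mtDNA, and VEGFB 0.11 and 0.13 for depleted cells against Prol and Sen (IR). On log2(TPM + 1) these were -0.014, 0.14, 0.14, 0.083, -0.048, 0.26 and 0.30, and HGF was 0.086 for depleted cells against Prol. HGF for both against acetate was 0.0099 with size factors and 0.013 with the DESeq2 test. With 1 library left out, the ranges were -0.16 to 0.17 (ANGPTL4, both against mtDNA), -0.0049 to 0.29 (ANGPTL4, mtDNA), -0.18 to 0.0023 (FGF2, interaction), -0.061 to 0.025 (HGF, both against acetate), -0.0055 to 0.060 (VEGFA, mtDNA), -0.0803 to 0.0047 (VEGFB, acetate), and for PGF -0.48 to 0.060 (interaction), -0.25 to 0.16 (mtDNA), -0.25 to 0.12 (depleted against Prol), -0.36 to 0.010 (depleted against Sen (IR)) and -0.0029 to 0.22 (Sen (IR)). Of these, the reported calls were those of HGF, ANGPTL4 and VEGFB for depleted cells against Prol, and after the change of sign VEGFB was called on log2(TPM + 1) in both comparisons of depleted cells. PGF, with 10 to 110 counts per library, is limited by depth.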
